A study of Mus musculus with 19 samples.

Results

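Glucocorticoid-responsive genes are genes whose transcription is raised by the adrenal hormones corticosterone and cortisol. The 10 genes described here were taken from a list (Fkbp5, Tsc22d3, Zbtb16, Sgk1, Klf9, Klf15, Mt1, Mt2, Errfi1 and Ddit4), and every probe set annotated to 1 of them alone was used. The list was chosen with earlier results of these data known. Of the 10 genes, 9 had such a probe set, with 19 probe sets in all among the 45141 on the array and 17097 genes that could be named. No probe set named Mt2 alone in the annotation used, so Mt2 has no value. Each gene was read at its brightest probe set unless another is named.

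Kidney RNA was measured in 19 males that were not subjected to renal ischemia-reperfusion injury, each on an array of its own (Affymetrix HT MG-430 PM). The aged-overweight animals were F1-FVB/C57BL6-hybrid mice of 73 weeks and 47 g on average, of which 5 were fasted for 3 days with water only (mice 33, 38, 39, 41 and 42) and 5 were fed ad libitum (mice 34, 36, 37, 40 and 43). The young-lean animals were C57BL/6 mice, 10 to 14 weeks old and 22 to 25 g, of which 4 were fasted for 3 days (mice 339, 340, 343 and 344) and 5 were fed ad libitum (mice 346, 347, 348, 349 and 350). Values of a group are given below in this order of the mice. Age, strain and body weight cannot be told apart in these groups, nor from any difference between the ages in how the arrays were processed. All values are log2 levels made by the authors with the RMA algorithm. Array medians lay between 3.44 and 3.49 in aged and between 4.15 and 4.21 in young mice, so that levels were compared between diets within an age, and between the ages only the fasting effects were compared.

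The glucocorticoid receptor (Nr3c1) rests in the cytoplasm in a complex with HSP90 and co-chaperones, and moves to the nucleus once it has bound hormone. There it binds DNA at paired copies of a short palindromic arm, and raises genes that restrain inflammation, release fuel and feed back on the receptor. Fasting is a known stimulus of adrenal glucocorticoid secretion in mice, and the kidney also expresses the related mineralocorticoid receptor, which shares several targets with it, among them Sgk1. Several of the listed genes also answer to other signals, such as metals for the metallothioneins Mt1 and Mt2 and amino acid shortage or hypoxia for Ddit4.

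The RefSeq promoters of the listed genes (250 bases before to 50 bases after a start site, build GRCm38.p6) were searched for short letter motifs, and 1 is shown for each of 3 motifs, that of Sgk1 with the full receptor element and those of Mt1 and Klf15, which held the most metal response cores and E-boxes among the genes that rose in fasted young kidneys. The table used has 17 promoters for 9 of the 10 genes. The full glucocorticoid response element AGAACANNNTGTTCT was found in 1 of the 6 promoters of Sgk1, from base -189 to base -175, and in 3 of all 32851 promoters of this length (0.00913%). Its single arm AGAACA, on either strand, was present in 3 of the 6 Sgk1 promoters and 1 of the 3 Tsc22d3 promoters. That makes 4 of 17 promoters (23.5%) against 19.0% of all promoters, and both arms of the full element are counted among these. Letters of the metal response element core (TGCACNC or TGCGCNC, either strand) were present in 3 places in the Mt1 promoter, 4 in that of Mt2 and once each in a promoter of Sgk1, Klf15 and Ddit4, which makes 5 of 17 promoters (29.4%) against 25.7% of all promoters. The clock E-box CACGTG stood 3 times in the Klf15 promoter and once each in that of Fkbp5 and in the Sgk1 promoter shown. That makes 3 of 17 promoters (17.6%) against 7.15% of all promoters with a match. In the sequences below the capitals mark the full glucocorticoid response element in Sgk1, the metal response element cores in Mt1 and the E-boxes in Klf15.
Sgk1, chr10:21993640-21993939, plus strand: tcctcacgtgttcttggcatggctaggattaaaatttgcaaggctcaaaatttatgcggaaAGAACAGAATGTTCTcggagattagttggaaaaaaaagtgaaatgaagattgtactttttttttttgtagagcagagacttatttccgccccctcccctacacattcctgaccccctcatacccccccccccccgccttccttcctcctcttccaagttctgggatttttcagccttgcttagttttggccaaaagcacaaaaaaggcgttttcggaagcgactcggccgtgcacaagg
Mt1, chr8:94178839-94179138, plus strand: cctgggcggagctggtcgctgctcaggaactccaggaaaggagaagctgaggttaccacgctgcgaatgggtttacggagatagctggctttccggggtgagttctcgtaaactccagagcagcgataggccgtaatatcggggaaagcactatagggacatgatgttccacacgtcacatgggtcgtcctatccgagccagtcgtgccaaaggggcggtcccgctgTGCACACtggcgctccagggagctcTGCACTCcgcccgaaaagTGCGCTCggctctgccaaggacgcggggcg
Klf15, chr6:90462326-90462625, plus strand: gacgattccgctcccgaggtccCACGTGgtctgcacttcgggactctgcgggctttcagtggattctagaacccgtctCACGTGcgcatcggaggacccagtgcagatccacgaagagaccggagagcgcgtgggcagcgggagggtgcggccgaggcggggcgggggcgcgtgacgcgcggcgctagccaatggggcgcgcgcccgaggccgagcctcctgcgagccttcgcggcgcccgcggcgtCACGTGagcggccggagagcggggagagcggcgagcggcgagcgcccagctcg
A match describes letters in the window and is no evidence of binding. Zbtb16 had no entry in the promoter table.

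Of the 9 measured glucocorticoid-responsive genes, 6 rose with fasting in young kidneys and 0 passed the test in aged kidneys. In young mice Fkbp5, Tsc22d3, Sgk1, Klf15, Mt1 and Ddit4 rose at an adjusted p of at most 0.05, against 10.7% of all genes, and 0 fell, against 12.5% of all genes. Of these, Fkbp5, Sgk1, Mt1 and Ddit4 also changed by at least 1.5-fold, which makes 4 of 9 genes against 2.95% of all genes. In aged mice 0 of 9 rose, against 4.32% of all genes, 0 fell, against 4.84%, and 0 rose by at least 1.5-fold, against 1.39%. Because the genes were listed with earlier results of these data known, these contrasts with all genes are descriptive and no independent test. At an unadjusted p under 0.05 there were 1 of 9 genes in aged and 9 of 9 in young mice, against 23.7% and 34.4% of all genes, and an ordinary linear model without variance moderation called 0 in aged and 2 in young mice (Klf15 and Mt1). One fit of all arrays also called 2 in young mice, and 3 rose without young ad libitum fed mouse 348 or 349 or young fasted mouse 343 or 344. For the ordinary model and these other fits the share of all genes was not computed. The median log2 fold change over the 9 genes was 0.15 in aged and 0.46 in young kidneys, while the median over all genes lay near 0 in both (-0.0064 and -0.0073). All tests were made with limma, and p values were adjusted over the whole array by Benjamini-Hochberg. Because kidney tissue was measured in bulk, a change in the share of a cell type and a change of RNA per cell cannot be told apart.

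**Figure D1:**
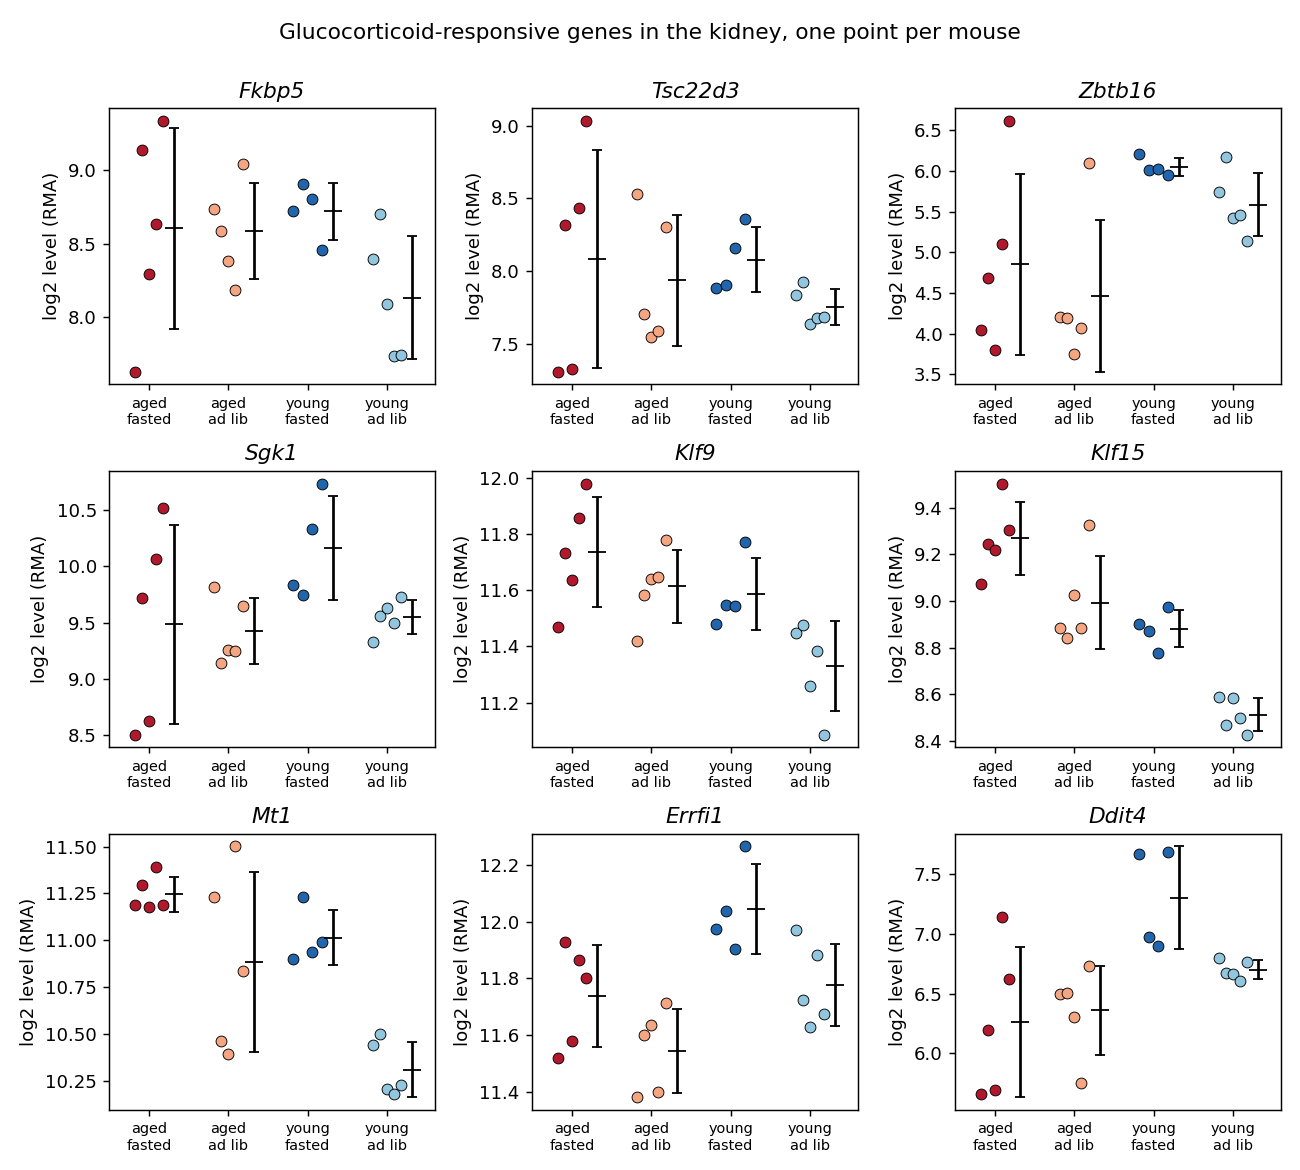
Log2 level (vertical axis, RMA) of the 9 measured genes in each mouse, with the 4 groups side by side and the mean with its SD beside the points. In Sgk1, Klf9, Klf15, Mt1 and Ddit4 every young fasted mouse lies above every young ad libitum fed mouse, while the aged groups overlap in all 9 genes.

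The groups did not overlap in 5 of 9 genes in young mice (Sgk1, Klf9, Klf15, Mt1 and Ddit4, with every fasted mouse above every ad libitum fed mouse), against 9.9% of all genes, and in 0 of 9 genes in aged mice, against 4.66%. The log2 fold change was above 0 in 8 of 9 genes in aged mice, where 48.3% of all genes were above 0, and in 9 of 9 genes in young mice, where this held for 47.9%. Over the 19 probe sets 0 rose in aged mice, against 3.16% of all probe sets, and 9 rose in young mice, against 10.1%.

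Fkbp5 encodes a co-chaperone that binds the receptor complex and lowers its affinity for hormone, and it is among the best known feedback targets of the receptor. Its log2 levels were 7.63, 9.13, 8.30, 8.63 and 9.33 in aged fasted mice, against 8.73, 8.59, 8.38, 8.19 and 9.04 in aged ad libitum fed mice. The aged fasted mice lay on both sides of the ad libitum fed range, and the log2 fold change was 0.019 (standard error 0.28, adjusted p = 0.983). In young fasted mice the levels were 8.72, 8.91, 8.80 and 8.45, against 8.40, 8.70, 8.09, 7.74 and 7.75 in young ad libitum fed mice. Here Fkbp5 rose by 50.2% (log2 fold change 0.59, standard error 0.19, adjusted p = 0.0462), with an overlap between the groups. The call was lost without young ad libitum fed mouse 348, 349 or 350 and without young fasted mouse 339, 340 or 343 (adjusted p = 0.0841 to 0.12). The second probe set rose by a like size in young mice (log2 fold change 0.60, adjusted p = 0.0346), while the dimmest of its 3 probe sets did not pass (-0.017, adjusted p = 0.901).

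Tsc22d3 encodes GILZ, a leucine zipper protein through which glucocorticoids restrain inflammatory signalling. It was at 7.31, 8.32, 7.33, 8.43 and 9.03 in aged fasted mice, against 8.53, 7.71, 7.55, 7.59 and 8.31 in aged ad libitum fed mice. Mice 33 and 39 were below all ad libitum fed mice and mouse 42 was above them, and the difference did not pass (log2 fold change 0.15, standard error 0.32, adjusted p = 0.869). The young fasted mice had 7.89, 7.91, 8.16 and 8.36, against 7.83, 7.93, 7.64, 7.68 and 7.68 in young ad libitum fed mice. Tsc22d3 rose 1.25-fold in young kidneys (log2 fold change 0.33, standard error 0.10, adjusted p = 0.0457), and its second probe set rose as well (0.22, adjusted p = 0.0343). The dimmest probe set missed the threshold (0.19, adjusted p = 0.111). Leaving out young ad libitum fed mouse 346, 348, 349 or 350 or young fasted mouse 343 or 344 took the first probe set to adjusted p = 0.062 to 0.12.

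Among the transcription factors, Zbtb16 (PLZF) is a zinc finger repressor that glucocorticoids induce strongly in many cell types. Its levels were 4.05, 4.69, 3.80, 5.10 and 6.62 in aged fasted mice, against 4.21, 4.19, 3.74, 4.06 and 6.09 in aged ad libitum fed mice. In each aged group 1 mouse (42 and 43) stood far above the rest, and the log2 fold change of 0.39 had a standard error of 0.52 (adjusted p = 0.769). Young fasted mice were at 6.20, 6.01, 6.03 and 5.95, against 5.74, 6.18, 5.42, 5.46 and 5.13 in young ad libitum fed mice. Only ad libitum fed mouse 347 reached the fasted range, and the log2 fold change of 0.46 (standard error 0.17) did not pass the test (adjusted p = 0.0807). Without that mouse it did (log2 fold change 0.61, adjusted p = 0.00579). The second probe set was at 0.14 in young mice (adjusted p = 0.636).

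Klf9 and Klf15 are Krüppel-like factors that glucocorticoids induce, and Klf15 drives amino acid breakdown and gluconeogenesis in the fasted liver. Klf9 was at 11.47, 11.73, 11.64, 11.86 and 11.98 in aged fasted mice, against 11.42, 11.58, 11.64, 11.65 and 11.78 in aged ad libitum fed mice (log2 fold change 0.12, standard error 0.099, adjusted p = 0.589). In young fasted mice it was at 11.48, 11.55, 11.55 and 11.77, against 11.45, 11.48, 11.26, 11.38 and 11.09 in young ad libitum fed mice. The young groups touched without overlapping, and the log2 fold change of 0.26 (standard error 0.091) missed the threshold (adjusted p = 0.0734). The other 4 Klf9 probe sets lay between 0.069 and 0.35 in aged and between -0.11 and 0.23 in young mice, and none of them passed.

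Klf15 had the smallest standard error of the genes that rose in young mice. Its levels were 8.90, 8.87, 8.78 and 8.97 in young fasted mice, against 8.59, 8.47, 8.58, 8.50 and 8.43 in young ad libitum fed mice, without overlap. It rose 1.29-fold there (log2 fold change 0.37, standard error 0.062, adjusted p = 0.00148) and passed in all 9 fits that left out 1 young array. In aged fasted mice it was at 9.07, 9.25, 9.22, 9.50 and 9.30, against 8.89, 8.84, 9.03, 8.89 and 9.33 in aged ad libitum fed mice. Every aged fasted mouse was above 4 of the 5 ad libitum fed mice, and mouse 43 was the exception. The log2 fold change was 0.28 (standard error 0.10, adjusted p = 0.163), and it passed, among the settings run, only when mouse 43 was left out (0.36, adjusted p = 0.0415).

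Sgk1 is a kinase that both adrenal corticoid receptors induce and that holds the epithelial sodium channel in the membrane of the distal nephron. In aged fasted mice its levels were 8.51, 9.71, 8.63, 10.06 and 10.51, against 9.81, 9.14, 9.26, 9.25 and 9.65 in aged ad libitum fed mice. Mice 33 and 39 lay below the whole ad libitum fed group and mice 41 and 42 above it, and the log2 fold change was 0.063 (standard error 0.34, adjusted p = 0.953). In young fasted mice the levels were 9.84, 9.75, 10.33 and 10.73, against 9.33, 9.56, 9.63, 9.50 and 9.73 in young ad libitum fed mice. Sgk1 rose 1.53-fold in young kidneys without overlap of the groups (log2 fold change 0.61, standard error 0.18, adjusted p = 0.0302). The call was lost without young ad libitum fed mouse 346, 347, 348 or 349 or young fasted mouse 343 or 344 (adjusted p = 0.0525 to 0.0834).

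Mt1 encodes a metallothionein, a small cysteine-rich protein that binds zinc and copper and is induced by metals as well as by glucocorticoids. Its brightest probe set may also bind related transcripts, as its name marks a shared sequence. Its levels were 10.90, 11.23, 10.93 and 10.99 in young fasted mice, against 10.44, 10.50, 10.20, 10.18 and 10.23 in young ad libitum fed mice. This was the strongest rise among the 9 genes (1.63-fold, log2 fold change 0.70, standard error 0.091, adjusted p = 0.000274), and it passed in all 9 fits that left out 1 young array. The second probe set rose too (0.77, adjusted p = 0.00719), but it was dim. Its mean was 4.69 in young fasted and 3.92 in young ad libitum fed mice, near the array medians of 4.15 to 4.21. Mouse 344 was at 5.35 there, against 4.36 to 4.66 in the other young fasted mice. At the brightest probe set aged fasted mice were at 11.19, 11.29, 11.17, 11.39 and 11.19, against 11.23, 10.46, 10.39, 11.50 and 10.84 in aged ad libitum fed mice. The 5 aged fasted mice lay close together (SD 0.093) and the ad libitum fed mice were spread widely (SD 0.48), with 2 of them as high as the fasted mice. The log2 fold change of 0.36 (standard error 0.18) did not pass (adjusted p = 0.321). A further probe set names Mt1 together with another gene and was not used.

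Errfi1 and Ddit4 encode inhibitors of growth signalling, Errfi1 (MIG6) of the EGF receptor family and Ddit4 (REDD1) of mTORC1. Errfi1 was at 11.52, 11.93, 11.58, 11.86 and 11.80 in aged fasted mice, against 11.38, 11.60, 11.63, 11.40 and 11.71 in aged ad libitum fed mice (log2 fold change 0.19, standard error 0.099, adjusted p = 0.328). In young fasted mice it was at 11.97, 12.04, 11.90 and 12.27, against 11.97, 11.73, 11.63, 11.88 and 11.67 in young ad libitum fed mice. The log2 fold change of 0.27 (standard error 0.092) missed the threshold (adjusted p = 0.064) and passed without young ad libitum fed mouse 346 (0.32, adjusted p = 0.0357).

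Ddit4 was the gene, of these 9, whose log2 fold change lay below 0 in aged mice. It was at 5.66, 6.20, 5.69, 7.14 and 6.62 in aged fasted mice, against 6.50, 6.50, 6.31, 5.75 and 6.73 in aged ad libitum fed mice (log2 fold change -0.096, standard error 0.27, adjusted p = 0.901). In young fasted mice its levels were 7.67, 6.97, 6.89 and 7.68, against 6.80, 6.67, 6.66, 6.61 and 6.76 in young ad libitum fed mice, without overlap. Mice 339 and 344 were well above the other fasted mice. Ddit4 rose 1.52-fold in young kidneys (log2 fold change 0.60, standard error 0.16, adjusted p = 0.0198), and the call was lost without young fasted mouse 339 or 344 (adjusted p = 0.0531 and 0.0576).

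**Figure D2:**
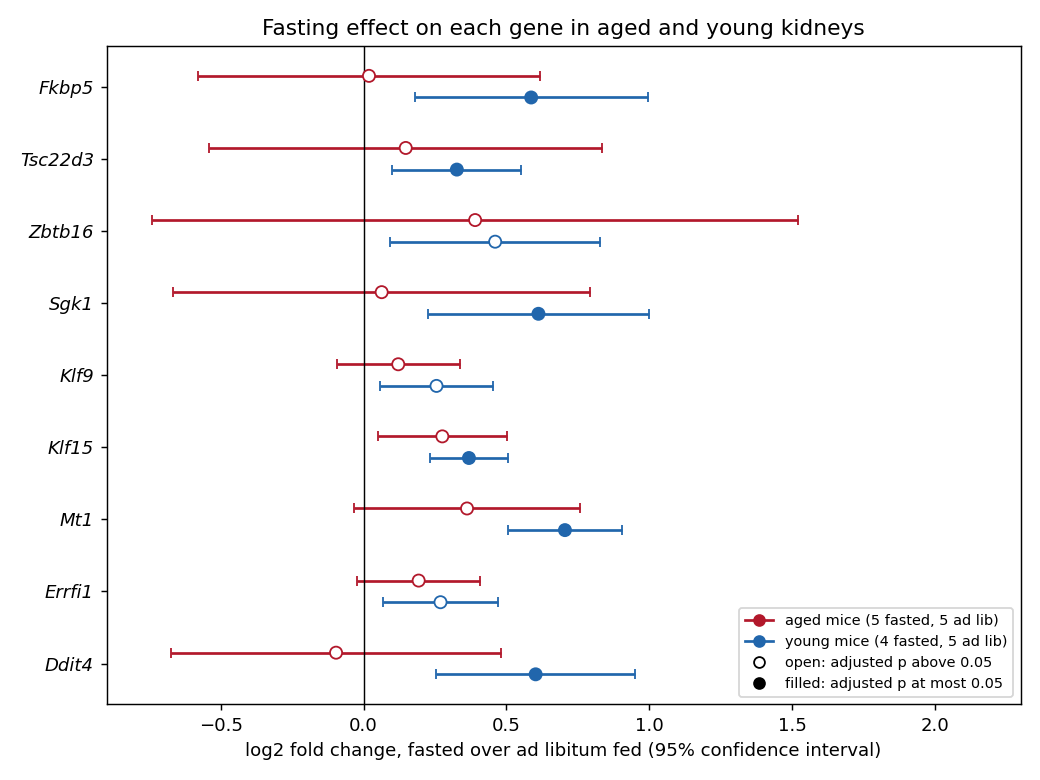
Log2 fold change of fasted over ad libitum fed mice (horizontal axis) with its 95% confidence interval for each gene, aged mice above young mice. The interval is wider in aged than in young mice in all 9 genes, and 6 filled points mark the young genes with an adjusted p of at most 0.05.

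The fasting effect was smaller in aged than in young mice in all 9 genes, where this direction held for 49.9% of all genes, but 0 of 9 differences passed the test, against 2.44% of all genes. At an unadjusted p under 0.05 there were also 0 of 9, against 15.3% of all genes. The aged minus young difference was largest for Ddit4 (-0.70, 95% confidence interval -1.42 to 0.020, adjusted p = 0.386), Fkbp5 (-0.57, -1.34 to 0.20, adjusted p = 0.558) and Sgk1 (-0.55, -1.44 to 0.34, adjusted p = 0.656). For Mt1 it was -0.34 (-0.81 to 0.13, adjusted p = 0.567). The others lay between -0.18 for Tsc22d3 (-0.97 to 0.61) and -0.070 for Zbtb16 (-1.37 to 1.23), with Klf9 at -0.13 (-0.43 to 0.16), Klf15 at -0.093 (-0.36 to 0.17) and Errfi1 at -0.076 (-0.37 to 0.22). All 9 intervals include 0. Young fasting effects that passed and aged effects that did not are therefore not shown to differ.

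The SD between the mice of a group was largest in aged fasted mice in 7 of the 9 genes. It exceeded that of aged ad libitum fed mice in 7 of 9 genes, against 42.2% of all genes. The SD between aged fasted mice was 0.68 for Fkbp5, 0.75 for Tsc22d3, 1.11 for Zbtb16, 0.88 for Sgk1 and 0.63 for Ddit4, against 0.19, 0.22, 0.11, 0.46 and 0.43 between young fasted mice, in the same order of genes. The SD was larger in aged fasted than in young fasted mice in 8 of 9 genes (58.3% of all genes), with a median ratio of 1.93 over the 9 genes and 1.15 over all genes. Between ad libitum fed mice it was larger in aged mice in 7 of 9 genes, a share near that of all genes (67.3%). The median ratio there was 2.37 over the 9 genes and 1.34 over all genes, so the wider spread was not limited to fasted mice. Of the 9 genes, 5 in aged fasted and 6 in aged ad libitum fed mice were above the upper decile of the SD of all genes in that group (0.25 and 0.27), whereas in young fasted and young ad libitum fed mice 2 each were (0.22 and 0.20). These spreads were not tested, and between the ages they cannot be told apart from array processing.

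**Figure D3:**
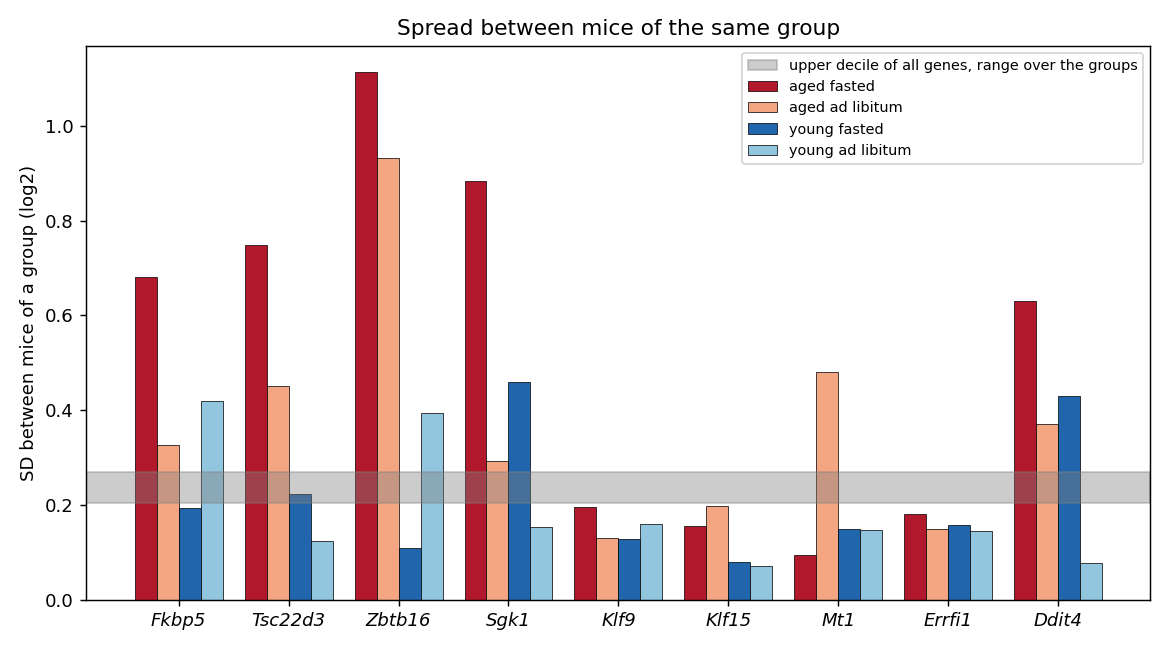
SD between the mice of a group (vertical axis, log2) for each gene and group. The grey band runs over the upper deciles of all genes in the 4 groups (0.20 to 0.27), and the aged fasted bars of Fkbp5, Tsc22d3, Zbtb16, Sgk1 and Ddit4 stand at 0.63 to 1.11.

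The order of the aged fasted mice was much alike from gene to gene. Mice 33 and 39 had the 2 lowest levels of the aged fasted group in 9 of 9 genes, where this pair was lowest in 13.3% of all genes, and mouse 42 was highest in 5 genes and mouse 41 in 3. In Mt1 mouse 33 was nearly level with mouse 42 (11.186 and 11.188), so the order of this gene is not firm. Set against the mean of aged ad libitum fed mice, the median deviation over the 9 genes was -0.41 in mouse 33 and -0.29 in mouse 39, against 0.29, 0.51 and 0.37 in mice 38, 41 and 42. Mouse 33 was above the ad libitum fed mean in 2 genes and mouse 39 in 4, whereas mouse 38 was above it in 8 and mice 41 and 42 in 9 each. In young mice all 4 fasted animals were above the mean of the young ad libitum fed mice in 9 of 9 genes, with medians of 0.39, 0.27, 0.40 and 0.49. Among aged ad libitum fed mice, mouse 43 was highest in 6 of 9 genes (14.8% of all genes) and had a median deviation of 0.33. The pairs and mice named here were chosen after their values were seen, and the 9 genes share the arrays, so that they are not independent. Both arrays of the low pair also stood apart in markers of other tissues or of the collecting duct, as given below. Whether this bears on the order was not tested.

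**Figure D4:**
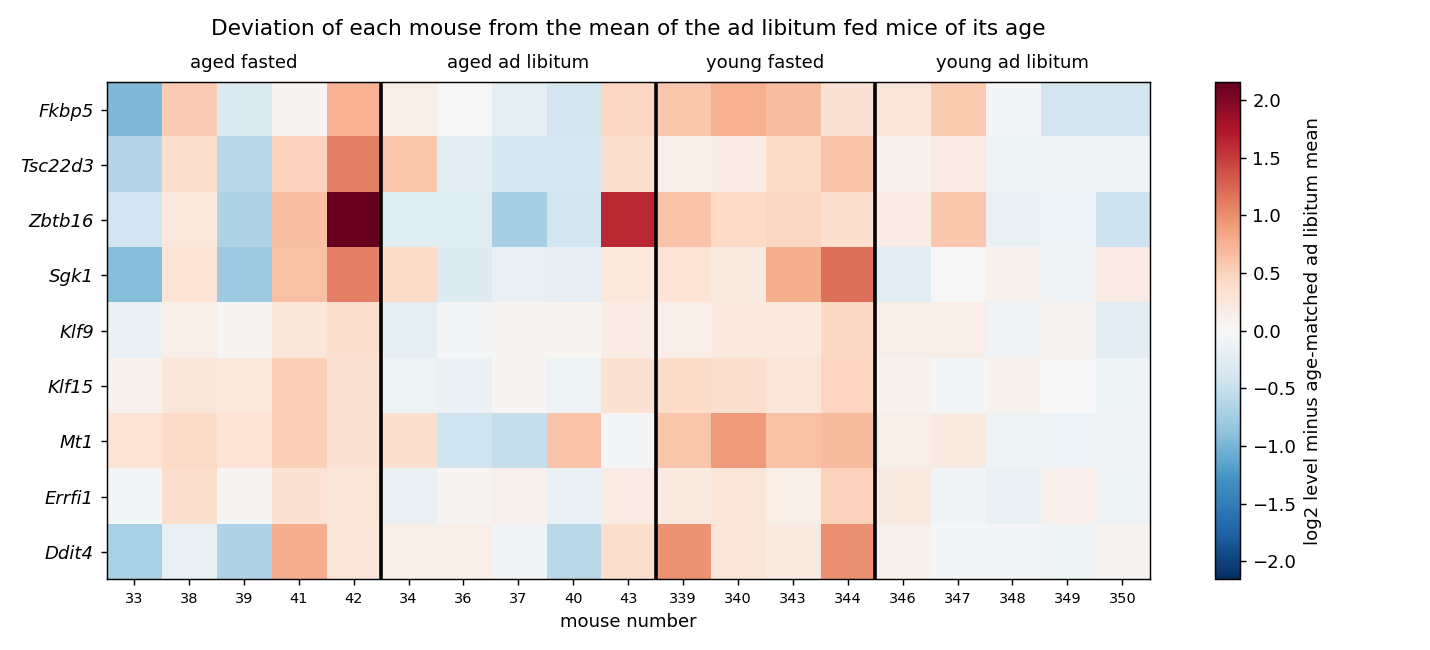
Log2 level of each gene (rows) in each mouse (columns) minus the mean of the ad libitum fed mice of its age, from blue (below) to red (above). Aged fasted mice 33 and 39 are mostly blue while mice 41 and 42 are red throughout, and the 4 young fasted mice are red in every gene.

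Transcripts known from other tissues differed in level between the arrays, and their part in the results was not tested beyond the values given here. Beside the marker counts below, 4.32% of all genes rose and 4.84% fell in aged mice, and 10.7% and 12.5% in young mice. The mean level of 9 liver markers was 9.46 in aged fasted mouse 33, 5.63 to 5.94 in the other aged fasted mice and 5.49 to 6.66 in those fed ad libitum. In young mice it was 6.20 to 7.69 in fasted and 5.99 to 6.96 in ad libitum fed mice. Of these markers 2 rose and 1 fell in young mice and 0 passed in aged mice. Brown adipocyte markers averaged 4.01 to 6.37 in young fasted mice, against 4.38 to 4.80 in young ad libitum fed mice, with 3 of 7 higher and 1 lower. Among aged fasted mice these averaged 3.72 in mouse 39 and 5.47 to 5.97 in the others. Aged ad libitum fed mice were at 4.24 to 6.23, and of the 7 markers 0 rose and 1 fell. The means of 8 macrophage markers were 5.71 to 5.90 in young fasted mice, against 6.13 to 6.49 in young ad libitum fed mice, with 5 lower and 1 higher. Adrenal cortex markers, from the gland that makes glucocorticoids, differed little, with a mean over 9 genes of 3.84 to 3.92 in aged fasted against 3.86 to 3.99 in aged ad libitum fed mice. In young mice it was 4.14 to 4.20 in fasted against 4.15 to 4.22 in ad libitum fed animals, and 0 of 9 passed in either age. With the liver marker level, the brown adipocyte marker level or the adrenal cortex marker level in the model, 7, 7 and 5 of the 9 genes rose in young mice, and Fkbp5 no longer passed (adjusted p = 0.0511, 0.228 and 0.0587). Without aged fasted mouse 33 and young fasted mouse 339, the arrays with the most liver transcripts, 4 genes rose in young mice (Tsc22d3, Sgk1, Klf15 and Mt1) and 0 in aged mice. The share of all genes that rose in the fits with marker levels or without these arrays was not computed. Proximal tubule markers were high on all arrays, with means of 10.8 to 11.5, and 2 of 5 fell in each age. The mean of 3 distal convoluted tubule markers was 7.32 to 7.46 in aged fasted against 7.60 to 8.28 in aged ad libitum fed animals, and 8.32 to 8.42 in young fasted against 8.43 to 8.76 in young ad libitum fed animals, and 1 of 3 fell in each age. In young mice the means did not overlap either for collecting duct markers (7.40 to 7.74 in fasted and 7.78 to 7.98 in ad libitum fed mice, 2 of 5 fell), thick ascending limb markers (11.01 to 11.05 and 11.11 to 11.20, 1 of 3 fell) or red blood cell markers (8.06 to 8.29 and 8.55 to 9.21, 2 of 3 fell). Among aged fasted mice, collecting duct markers averaged 7.41 in mouse 39 and 7.85 to 8.05 in the others. Aged ad libitum fed mice were at 7.92 to 8.21, and 0 of 5 passed. White adipocyte markers averaged 4.72 in aged fasted mouse 39 and 5.92 to 6.78 in the other aged fasted mice. They were at 4.96 to 6.07 in aged ad libitum fed animals. For young animals they were at 5.29 to 7.24 in fasted and 5.74 to 6.28 in ad libitum fed mice, and 1 of 5 rose. Of 4 kidney injury markers 0 passed in aged mice and 1 fell in young mice. Their means were 4.35 to 5.28 in aged fasted and 4.18 to 4.66 in aged ad libitum fed mice. In young mice they were 4.20 to 4.45 in fasted and 4.27 to 4.59 in ad libitum fed animals. The aged minus young difference passed for 1 of the 4, where it was above 0, against 2.44% of all genes in either direction.

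Of 12 measured genes for receptors, steroid conversion and receptor chaperones, 0 rose and 0 fell in aged mice, and 1 rose and 4 fell in young mice. Over all genes, 4.32% rose and 4.84% fell in aged mice, and 10.7% rose and 12.5% fell in young mice. The genes that fell were Hsp90aa1, the inducible HSP90 (log2 fold change -0.69, adjusted p = 0.00337), its co-chaperone Stip1 (-0.64, adjusted p = 0.00102), the glucocorticoid receptor Nr3c1 (-0.29, adjusted p = 0.0209) and the coactivator Ncoa2 (-0.22, adjusted p = 0.0252). H6pd, which supplies the cofactor for glucocorticoid reactivation in the endoplasmic reticulum, was the gene that rose (0.22, adjusted p = 0.0434). In aged mice Nr3c1 was at -0.28 (adjusted p = 0.15). The calls in young mice were lost for H6pd without any array but fasted mouse 339 (adjusted p = 0.0573 to 0.117), for Ncoa2 without ad libitum fed mouse 346 or 347 or fasted mouse 339, 340 or 343 (0.0511 to 0.0653) and for Nr3c1 without fasted mouse 339 or 343 (0.0512 and 0.0538). With the mean of its probe sets Ncoa2 was at -0.10 (adjusted p = 0.158).

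Of 30 other measured glucocorticoid-induced genes, 7 rose and 1 fell in aged mice, against 4.32% and 4.84% of all genes. In young mice 19 rose and 3 fell, against 10.7% and 12.5% of all genes. Their median log2 fold change was 0.27 in aged and 0.46 in young mice. This list was also chosen with earlier results of these data known, so its contrast with all genes is descriptive. Pdk4, the kinase that shuts pyruvate dehydrogenase in fasting, rose by 2.51 in aged (adjusted p = 0.00244) and 3.07 in young mice (adjusted p = 4.25e-07) on the log2 scale. Retreg1, a receptor for autophagy of the endoplasmic reticulum, rose by 0.56 in aged (adjusted p = 0.000423) and 0.85 in young mice (adjusted p = 1.75e-06). Angptl4, an inhibitor of lipoprotein lipase, rose in young mice (1.75, adjusted p = 2.64e-05) and was at 1.01 in aged mice (adjusted p = 0.169), and its young value was 1.01 with the mean of its probe sets (adjusted p = 1.38e-06). Several of these genes also answer to other fasting signals. The genes that fell were Trim63, a ubiquitin ligase known from muscle atrophy, in both ages (-1.17 in aged and -0.93 in young mice, adjusted p = 0.000262 and 9.74e-05), and in young mice G6pc (-0.44, adjusted p = 0.0455) and Fam107a (-0.38, adjusted p = 0.0121), named after their values were seen because the count is small. G6pc no longer passed without ad libitum fed mouse 348, 349 or 350 or fasted mouse 339, 343 or 344 (adjusted p = 0.0624 to 0.128).

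Per1, a clock gene with a well known glucocorticoid response element, was the gene of this list whose effect differed between the ages. Its levels were 6.98, 7.65, 7.55, 8.23 and 8.43 in aged fasted mice, against 7.40, 7.10, 7.29, 6.82 and 7.43 in aged ad libitum fed mice (log2 fold change 0.56, adjusted p = 0.203). In young fasted mice they were 6.94, 7.50, 7.33 and 7.97, against 5.52, 5.87, 5.52, 5.79 and 5.23 in young ad libitum fed mice, without overlap (1.85, adjusted p = 4.56e-05). The aged minus young difference was -1.28 (95% confidence interval -1.96 to -0.61, adjusted p = 0.0446). This call was lost in 14 of the 19 fits that left out 1 array (adjusted p = 0.0504 to 0.105), and it held only without young ad libitum fed mouse 349, young fasted mouse 339, aged ad libitum fed mouse 40 or aged fasted mouse 41 or 42. Mice 33 and 39 were the 2 lowest aged fasted mice in 13 of the 30 genes of this list, Per1 among them. The same held for 6 of 12 genes of receptors and chaperones, 5 of 13 of ErbB signalling, 4 of 14 induced by ATF4 or hypoxia, 3 of 13 of sodium and potassium transport, 3 of 15 clock genes, 2 of 10 Krüppel-like factors, 1 of 16 repressed inflammatory genes and 0 of 14 of zinc handling, against 13.3% of all genes.

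**Figure D5:**
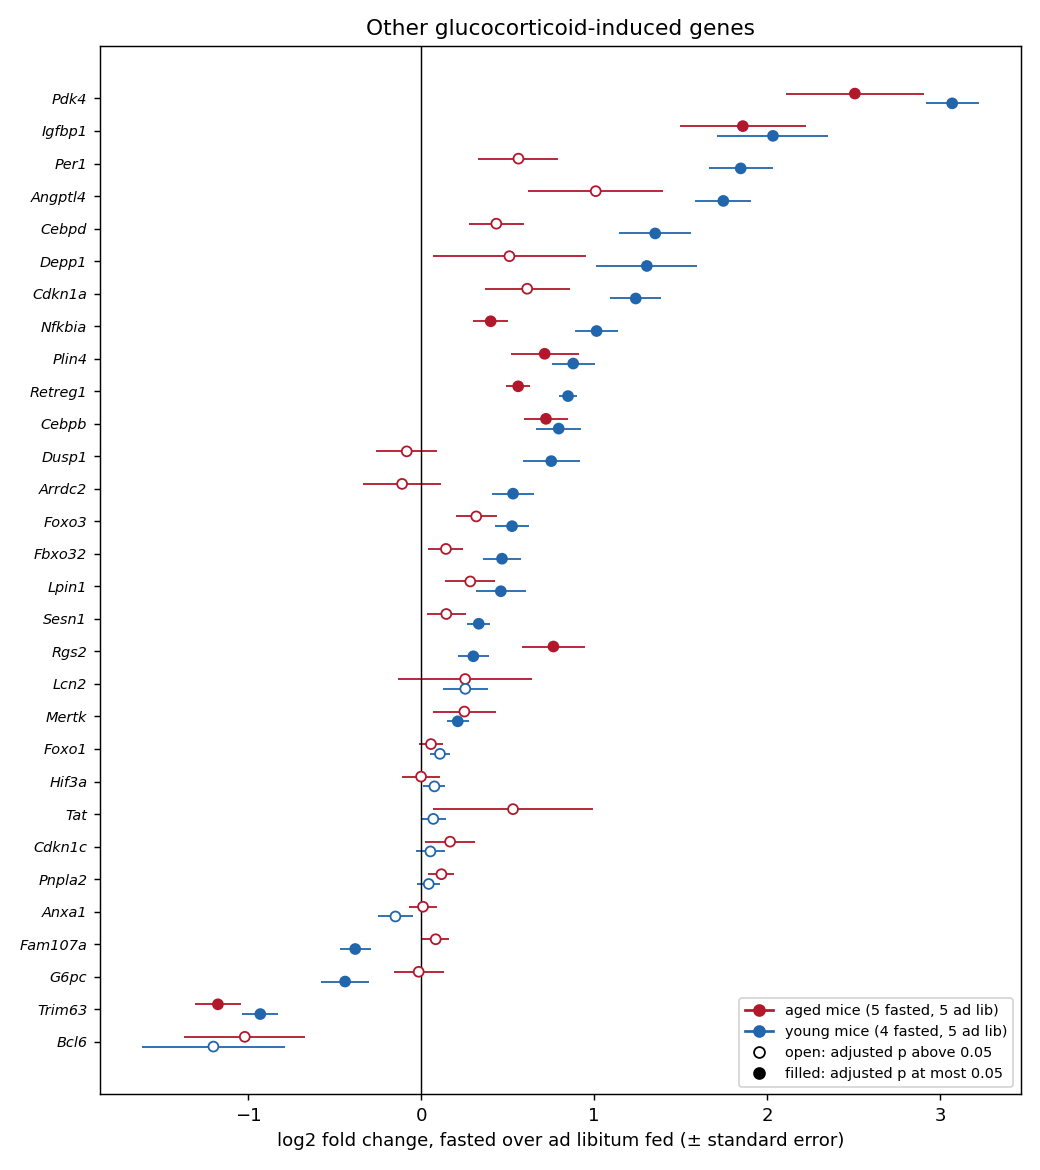
Log2 fold change of fasted over ad libitum fed mice with its standard error (horizontal axis) for the 30 measured genes of the list of other glucocorticoid-induced genes, aged mice above young mice. Filled points passed an adjusted p of 0.05, which 19 genes did upwards in young and 7 in aged mice, and Per1 is the gene whose effects differed between the ages.

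Of 16 measured genes that glucocorticoids repress in inflammation, 2 rose and 0 fell in aged mice, against 4.32% and 4.84% of all genes. In young mice 1 rose and 2 fell, against 10.7% and 12.5% of all genes. Icam1, an adhesion molecule for leukocytes, rose in both ages (0.56 in aged and 0.68 in young mice, adjusted p = 0.00278 and 0.0252), though not in young mice without ad libitum fed mouse 348 or fasted mouse 340 or 344 (adjusted p = 0.0612 to 0.0757). Cxcl10, a chemokine for T cells, rose in aged mice (0.61, adjusted p = 0.0159) and was at -0.44 in young mice (adjusted p = 0.225). The chemokine Ccl5 fell in young mice (-0.66, adjusted p = 0.0148), as did the macrophage growth factor Csf1 (-0.50, adjusted p = 0.00386), whose effects differed between the ages (aged minus young 0.64, adjusted p = 0.0183). With the mean of its probe sets the Csf1 difference was 0.23 (adjusted p = 0.177), and the value in young mice was -0.23 (adjusted p = 0.00585).

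Genes downstream of or beside single members were read from lists of their pathways. Of 13 genes of aldosterone- and Sgk1-linked sodium and potassium transport, 1 rose and 0 fell in aged mice. In young mice 0 rose and 2 fell. Over all genes, 4.32% rose and 4.84% fell in aged mice, and 10.7% and 12.5% in young mice. Scnn1a, a subunit of the epithelial sodium channel, rose in aged mice (0.53, adjusted p = 0.0388) and was at 0.11 in young mice (adjusted p = 0.277). Its call was lost without aged ad libitum fed mouse 36, 37, 40 or 43 or aged fasted mouse 38, 39 or 42 (adjusted p = 0.0504 to 0.0936). The potassium channel Kcnj1 fell in young mice (-0.45, adjusted p = 0.00336), as did the sodium-proton exchanger Slc9a3 (-0.34, adjusted p = 0.00391), and the Kcnj1 effect differed between the ages (aged minus young 0.65, adjusted p = 0.0108).

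Of 14 genes of zinc handling and metal response other than Mt1 and Mt2, 1 rose in each age. Among all genes 4.32% rose in aged and 10.7% in young mice. Fallers were 0 in aged and 1 in young mice, against 4.84% and 12.5% of all genes. The zinc transporter Slc30a7 rose in both ages (0.37 and 0.27 in aged and young mice, adjusted p = 0.022 and 0.00888), and the metal importer Slc39a8 fell in young mice (-0.42, adjusted p = 0.00541). The aged call of Slc30a7 was lost without ad libitum fed mouse 37 or fasted mouse 39 or 41 (adjusted p = 0.0516 to 0.0607), and with the mean of its probe sets neither age passed (0.19 and 0.068 in aged and young mice, adjusted p = 0.244 and 0.59).

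Of 14 genes induced by ATF4 or hypoxia, as Ddit4 is, 1 rose in aged and 8 in young mice and 0 fell. Among all genes 4.32% and 10.7% rose and 4.84% and 12.5% fell, in aged and young mice. Bnip3, a mitophagy receptor, rose in both ages (0.52 and 0.81 in aged and young mice, adjusted p = 0.00596 and 1.38e-05). In young mice the asparagine synthetase Asns (1.21, adjusted p = 7.07e-05), the oxygen sensor Egln3 (1.12, adjusted p = 0.000164) and the glutathione-degrading enzyme Chac1 (1.07, adjusted p = 0.000417) rose as well. The effect was smaller in aged mice for Asns (aged minus young -0.81, adjusted p = 0.0374), Chac1 (-0.98, adjusted p = 0.0164) and Trib3, a pseudokinase named after its value was seen (-0.82, adjusted p = 0.0164). The Asns difference passed in 8 of the 19 fits that left out 1 array, and it was lost without young ad libitum fed mouse 346, 349 or 350, young fasted mouse 339, 340 or 344, aged ad libitum fed mouse 34, 36, 40 or 43 or aged fasted mouse 38 (adjusted p = 0.0502 to 0.0892).

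Of 13 genes of ErbB and growth factor signalling, 2 rose in aged mice and 0 fell, against 4.32% and 4.84% of all genes. In young mice 1 rose and 2 fell, against 10.7% and 12.5% of all genes. The EGF receptor Egfr, which Errfi1 inhibits, fell in young mice (-0.56, adjusted p = 0.00427), where its relative Erbb3 rose (0.37, adjusted p = 0.0138). In aged mice the ligand Egf (0.32, adjusted p = 0.0344) and the ERK phosphatase Dusp6 (0.40, adjusted p = 0.0142) rose, and the Dusp6 effect differed between the ages (aged minus young 0.59, adjusted p = 0.0269). The call of Egf was lost without aged ad libitum fed mouse 36, 37 or 40 or aged fasted mouse 38, 39, 41 or 42 (adjusted p = 0.0599 to 0.0914), and the Dusp6 difference without young ad libitum fed mouse 350, young fasted mouse 339 or 340 or aged fasted mouse 41 (0.0507 to 0.0644). With the mean of all probe sets of a gene Egfr was at -0.096 (adjusted p = 0.22) and Erbb3 at 0.10 (adjusted p = 0.265) in young mice.

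Of 15 clock genes, 2 rose and 0 fell in aged mice, against 4.32% and 4.84% of all genes. In young mice 4 rose and 2 fell, against 10.7% and 12.5% of all genes. Bhlhe40, a repressor of the clock, moved in opposite directions. Its levels were 9.71, 10.02, 9.56, 9.80 and 9.56 in aged fasted mice, against 9.61, 9.07, 9.45, 8.98 and 9.16 in aged ad libitum fed mice. They were 7.48, 7.81, 7.92 and 8.05 in young fasted mice, against 8.65, 8.94, 8.96, 8.92 and 8.81 in young ad libitum fed mice. It rose in aged (0.48, adjusted p = 0.0445) and fell in young kidneys (-1.04, adjusted p = 5.97e-05), with an aged minus young difference of 1.52 (adjusted p = 0.000121). The aged rise was lost without any array but ad libitum fed mouse 34 or 37 (adjusted p = 0.0509 to 0.108). The output regulator Hlf rose in both ages (0.43 and 0.45 in aged and young mice, adjusted p = 0.0359 and 0.00516), and Ciart and Dbp rose in young mice (0.80 and 1.25, adjusted p = 0.000965 and 0.00556). The aged call of Hlf held only without ad libitum fed mouse 34 or fasted mouse 38 among the 10 fits that left out 1 aged array (adjusted p elsewhere 0.0585 to 0.0882). The hour at which the kidneys were taken was not given in the sources used here.

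Of 10 other Krüppel-like factors, 6 rose in aged and 4 in young mice and 0 fell. Among all genes 4.32% and 10.7% rose and 4.84% and 12.5% fell, in aged and young mice. Klf11 rose by 0.66 in aged and 1.47 in young mice (adjusted p = 0.0331 and 5.1e-05), and Klf10 by 0.73 and 0.98 (adjusted p = 0.0051 and 0.00123). Klf4 rose by 0.81 and 0.57 (adjusted p = 0.0201 and 0.000714), and Klf6 rose in aged mice (0.54, adjusted p = 0.00204) and was at 0.17 in young mice (adjusted p = 0.218). In aged mice the call of Klf11 was lost without ad libitum fed mouse 36 or fasted mouse 38, 39, 41 or 42 (adjusted p = 0.0587 to 0.0829) and that of Klf4 without fasted mouse 41 or 42 (0.0501 and 0.0606).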

How the data were processed

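Kidney RNA of 19 mice was measured on HT MG-430 PM arrays. The authors corrected background and normalized with RMA, run on the arrayanalysis.org pipeline, whose versions are not stated in the sources used, and the deposited table holds log2 values of 45141 probe sets. The array medians point to separate normalization of each age. Depth does not apply to arrays, and the number of arrays limits the precision.

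Statistics were computed in R 4.3.3 with limma 3.58.1, separately for each age, and in one fit of the 4 groups for the difference between the fasting effects. Benjamini-Hochberg adjustment ran over the whole table. "Rose" and "fell" stand for an adjusted p no higher than 0.05, and a minimum fold of 1.5 is named where used. The fits were tested on simulated data.

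Gene names came from the platform annotation, with symbols updated through RefSeq (GRCm38.p6). Of all probe sets, 28898 carry 1 gene symbol, 551 several and 15692 none. A gene was read at the brightest probe set that names it alone. From each further list, at most 4 genes that passed with the smallest adjusted p were named, and any gene that passed in opposite directions. Look-alike genes were to be named for members called in both ages, of which there were 0. The members and lists were chosen with earlier results of these data known. Promoters came from RefSeq, and motifs were matched on both strands. The samples are 1 mouse each. The p values set a difference of group means against the spread between these mice, which limma moderated over all probe sets in the main fits. Alternatives were an ordinary model, one fit of all arrays, array weights, variance trend, other normalizations, a filter on dim probe sets, other thresholds, other probe sets of a gene, marker levels as covariates and leaving out arrays. Serum, histology and RT-qPCR data were not analysed here.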

Additional observations from a re-analysis of the deposited data

Results flagged for a closer look

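Of the 36 groups of values tested (9 genes in 4 groups), 1 held a mouse far from the others. Aged ad libitum fed mouse 43 had a Zbtb16 log2 level of 6.09, against 3.74 to 4.21 in the other 4 mice of its group. Chance alone sets about 1 in 20 such groups apart.

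In 8 genes of the neighbouring lists the fasting effect differed between the ages in the test of the difference itself, given as the aged minus the young log2 fold change. It was lower in aged mice for Per1 (-1.28), Trib3 (-0.82), Asns (-0.81) and Chac1 (-0.98). It was higher in aged mice for Csf1 (0.64), Kcnj1 (0.65), Dusp6 (0.59) and Bhlhe40 (1.52). When 1 array was left out, the call was lost in 14 of 19 fits for Per1, 11 for Asns and 4 for Dusp6. With the mean of its probe sets the Csf1 difference was 0.23 (adjusted p = 0.177). None of the 9 glucocorticoid-responsive genes was among these 8 genes. The 8 genes included 3 of 14 induced by ATF4 or hypoxia and 1 of 30 other glucocorticoid-induced genes. The rest were 1 each of 16 repressed inflammatory genes, 13 of sodium and potassium transport, 13 of ErbB signalling and 15 clock genes. Of 12 receptor and chaperone genes, 14 of zinc handling and 10 Krüppel-like factors 0 passed. Over all genes 2.44% passed this test.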

How the results depend on the processing

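No paired analysis was possible because the labels give no pairs of mice between the diets. The paper states that mice were matched in pairs by weight and sex before they were assigned to a diet. Whether the array mice formed such pairs is not given. Of the 9 genes, the number that rose in young mice was 6, and it was 2 (Klf15 and Mt1) in the ordinary model without moderation, 2 in one fit of all arrays and 2 at an adjusted p of at most 0.01. It was 4 with arrays centred on their medians, 4 with a minimum fold of 1.5, 4 without the liver-rich arrays, 7 with array weights, 7 with dim probe sets removed, 7 with the mean of the probe sets and 8 with the variance trend and robust fit. It ranged from 3 to 6 when 1 young array was left out, with 3 without young ad libitum fed mouse 348 or 349 or young fasted mouse 343 or 344. Apart from the minimum fold, the share of all genes that rose under these settings was not computed. These shifts are therefore not shown to be particular to the 9 genes. Mt1 passed in young mice under every setting run, and Klf15 under every one but the minimum fold, which it did not reach. In aged mice 0 genes rose throughout, apart from 1 (Klf15) without ad libitum fed mouse 43, so the range over arrays left out was 0 to 1. No difference between the ages passed in any setting.

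Signs turned for effects that had not passed. In aged mice Fkbp5 was at -0.042 with the mean of its probe sets and -0.040 at the second probe set, and Zbtb16 at -0.031 at the second probe set. With the adrenal cortex level as a covariate Fkbp5 was at -0.20, Tsc22d3 at -0.034, Zbtb16 at -0.13 and Sgk1 at -0.061. Ddit4 was at 0.054 without both arrays rich in liver transcripts and 0.019 with the liver level as a covariate. The aged minus young difference was 0.018 for Tsc22d3 at the second probe set, 0.052 for Klf9 with the mean of its probe sets, and for Zbtb16 0.18 without the liver-rich arrays, 0.066 with the liver level and 0.022 with the brown adipocyte level. Leaving out 1 array gave ranges in aged mice of -0.16 to 0.26 for Fkbp5, -0.089 to 0.34 for Tsc22d3, -0.051 to 0.80 for Zbtb16, -0.19 to 0.31 for Sgk1 and -0.32 to 0.054 for Ddit4, and for the difference -0.42 to 0.015 for Tsc22d3 and -0.51 to 0.34 for Zbtb16. The cause of these changes was not tested.

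Among other glucocorticoid-induced genes 12 to 19 rose in young mice and 3 to 8 in aged mice over the settings run, against 19 and 7 as reported, and the Per1 difference kept its sign in all 30 settings and passed in 14. The shares of all genes under most of these settings were not computed. Genes of the other lists that had passed gave 1901 values over the settings, of which 279 lost the call and 0 changed sign. These genes, Per1 among them, were chosen for passing on the same arrays. A kept sign was therefore nearly fixed in advance and is no support. The ordinary model lost 36 of 86 such calls, more than any other setting that kept all arrays.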
